A study of Mus musculus with 8 samples.

Results

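The genes described here mark the medium spiny neurons of the striatum: the receptors Adora2a and Drd2, the signalling proteins Rgs9, Adcy5, Pde10a and Ppp1r1b, the neuropeptide precursors Penk and Tac1, and the nuclear receptor Rxrg. Every non-control probe that the array files name for one of them was taken, which gave 18 probes for 9 genes, of 56605 probes and 37325 gene names on the array. The members were chosen by their brain signals, which were higher on the low-dose and lower on the high-dose array than in the control. Their brain values are therefore a description and carry no test.

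Male mice were given lead acetate in their drinking water for 3 weeks, 100 mg/L in the low-dose groups and 1000 mg/L in the high-dose groups, and control mice were given distilled water. RNA from a small piece of brain, kidney or liver was labelled with Cy3 and hybridised to a 1-colour Agilent array. There were 8 arrays in 8 groups: control, low dose and high dose for brain and for kidney, and control and high dose for liver. Strain, age, the number of animals behind an array and the part of the brain that was cut are not given in the sources used here. Each group had 1 array, which leaves every difference without replication, and no test between groups was run.

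Medium spiny neurons are the GABA-releasing output cells of the striatum and make up most of its neurons. They fall into 2 classes. Cells of the direct pathway carry the D1 dopamine receptor, which raises cyclic AMP, and release dynorphin and substance P. Cells of the indirect pathway carry the D2 dopamine receptor, which lowers cyclic AMP, together with an adenosine receptor, which raises it, and release enkephalin. In both classes cyclic AMP is made by adenylyl cyclase 5, broken down by phosphodiesterase 10A and read out through protein kinase A and its substrate DARPP-32.

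All levels below are log2 signals relative to the 75th percentile of the same array, so a level of 0 is the signal at that percentile. A difference is the difference of 2 such levels for the same probe. The array error is the error that the scanner software attaches to the 2 spots, and it does not include variation between animals or tissue pieces. A gene was counted as higher or lower when the difference was at least 1 (2-fold), exceeded 3 times its array error, and rested on 2 unsaturated signals, both well above background. Between 53.4% and 67.1% of the spots of an array were well above background. Over all measured genes the brain differences had a median near 0 and an SD of 0.24 to 0.27, and the array error of the median gene was 0.21. The tissue labels were checked on markers: 10 neuronal genes such as Snap25 and Map2 had a median level of 4.86 to 4.95 on the brain arrays and at most -2.77 elsewhere, 4 kidney genes including Umod 4.14 to 4.19 on kidney arrays, and 4 liver genes including Alb 9.56 on both liver arrays.

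On the brain arrays the 9 genes were brightest at the low dose, followed by the control and then the high dose. Against the control, the low-dose array was higher by 1.34 to 2.24 with a median of 1.53, and the high-dose array was lower by 0.25 to 0.95 with a median difference of -0.62. At the low dose 9 of 9 genes passed the size rule, where 0.441% of the 22692 measured genes passed it upwards. At the high dose 0 of 9 passed, where 0.25% of 22797 measured genes passed downwards. Between the high and the low dose 9 of 9 were lower past the size rule, with a median of -2.12, where 0.738% of 23173 genes were. By sign alone, 17.7% of the 22585 genes measured on all 3 brain arrays lay above the control at the low dose and below it at the high dose. Both contrasts with the control use the same control array, so a high or low reading on it shifts both signed differences the same way. In tissue RNA, fewer cells of a type and less RNA per cell cannot be told apart.

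**Figure D1:**
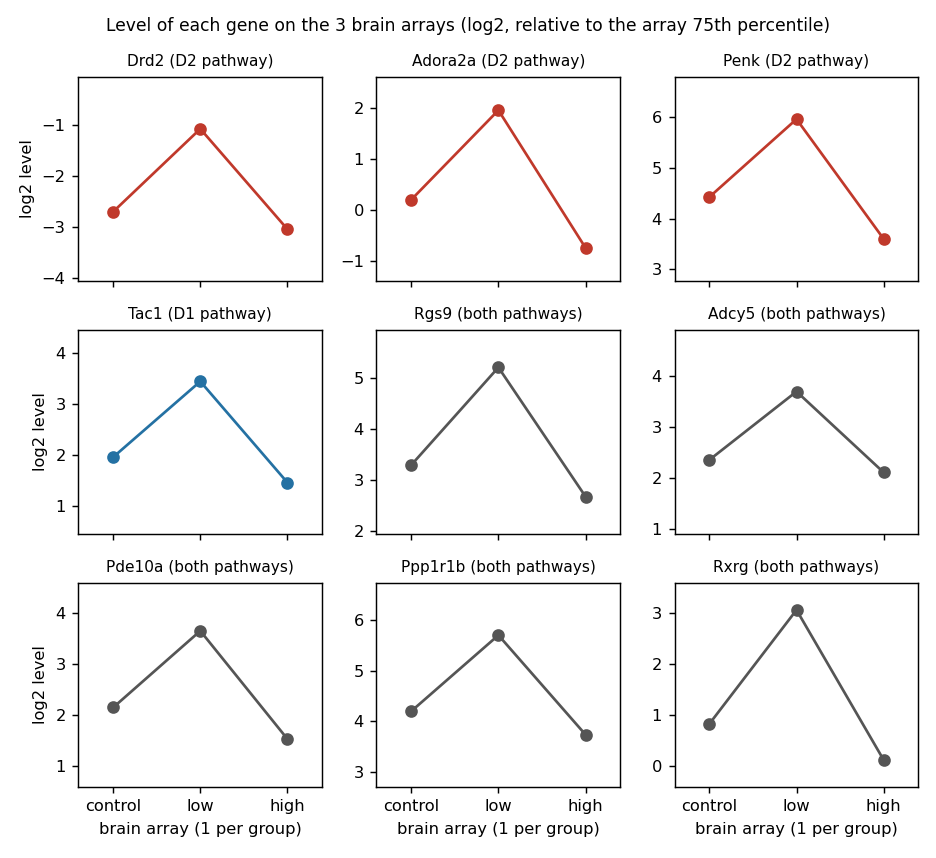
Level of each of the 9 genes (log2, relative to the array's 75th percentile) on the control, low-dose and high-dose brain array, 1 array per group. Every panel peaks at the low dose, and the high-dose level lies below the control by 0.25 (Adcy5) to 0.95 (Adora2a); each panel spans the same range in log2 units, and there are no error bars because there are no replicates.

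Among the receptors, Adora2a encodes an adenosine receptor that couples to the stimulatory G protein of the striatum. Its probe at chr10:74797461-74797520 (mm9, forward strand) read 0.20 in the brain control, 1.96 with the low dose and -0.74 with the high dose. The low dose was 3.38-fold above the control and the high dose 1.93-fold below it, and both differences (1.76 and -0.95) exceeded 3 times the array error of 0.20. The high-dose difference of Adora2a was the largest of the 9 and did not pass the size rule; with quantile scaling it was -1.03 and passed.

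Drd2 encodes the D2 dopamine receptor, the target of most antipsychotic drugs. Its probe lies in coding sequence at chr9:49215047-49215106 (mm9, forward strand) and is shown here because its signal was below the 75th percentile on every array:
Drd2 probe A_52_P529650: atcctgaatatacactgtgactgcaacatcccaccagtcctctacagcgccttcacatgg
The Drd2 level was -2.70 in the control, -1.07 under the low and -3.04 under the high dose. The low dose stood 1.63 above the control (array error 0.22, 3.09-fold), and 1.12 above it with another background correction. The high-dose difference of -0.34 was within 3 times its array error of 0.24, so the control and high-dose levels of Drd2 are not separated.

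The next 4 genes act on the receptors' signal inside the cell. Rgs9 encodes a regulator that speeds up the shutdown of inhibitory G proteins, and its long splice form is enriched in the striatum. Its reported probe, on the reverse strand at chr11:109086669-109086728 (mm9), read 3.30 in the control, 5.21 under the low and 2.68 under the high dose. That is 3.77-fold above the control at the low dose and 1.54-fold below it at the high dose (differences 1.92 and -0.62, array error 0.20 each).

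Adcy5 encodes the main adenylyl cyclase of the striatum. At chr16:35304398-35304457 (mm9, forward strand) its levels were 2.36, 3.70 and 2.11 in control, low dose and high dose. The low-dose difference of 1.34 and the high-dose difference of -0.25 were the smallest of the 9 in size. With an array error of 0.20, the control and the high dose are not separated for Adcy5.

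Pde10a encodes the phosphodiesterase that degrades cyclic AMP and cyclic GMP in medium spiny neurons. Its probe at chr17:9174995-9175054 (mm9, forward strand) read 2.14 in the control, 3.64 under the low and 1.52 under the high dose. The differences from the control were 1.50 (2.84-fold higher) and -0.62 (1.54-fold lower).

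Ppp1r1b encodes DARPP-32, which inhibits protein phosphatase 1 once protein kinase A has phosphorylated it. The reported probe at chr11:98218965-98219024 (mm9, forward strand) read 4.20 in the control, 5.69 under the low and 3.74 under the high dose. The low dose was 2.81-fold above the control (1.49), and the high-dose difference of -0.46 was within 3 times the array error.

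The neuropeptide precursors belong to different pathways: Penk gives rise to the enkephalins of the indirect pathway and Tac1 to substance P and neurokinin A of the direct pathway. Penk, on the reverse strand at chr4:4060735-4060794 (mm9), read 4.42 in the control, 5.95 under the low and 3.60 under the high dose. Its low-dose difference was 1.53 (2.88-fold) and its high-dose difference -0.82 (1.77-fold lower), beyond 3 times the array error. Tac1, at chr6:7512893-7512952 (mm9, forward strand), read 1.96, 3.44 and 1.46 in the same order. Its low-dose difference was 1.49 (2.80-fold), and its high-dose difference of -0.50 was within 3 times the array error.

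Rxrg encodes the retinoid X receptor gamma, a nuclear receptor that pairs with retinoic acid receptors. At chr1:169569624-169569683 (mm9, forward strand) it read 0.82 in the control, 3.06 under the low and 0.12 under the high dose. It had the largest low-dose difference of the 9 (2.24, 4.71-fold) and the largest difference between high and low dose (-2.94, 7.69-fold lower). Against the control the high dose was lower by 0.71. Across the 9 genes, 5 high-dose differences exceeded 3 times the array error (Adora2a, Rgs9, Penk, Rxrg and Pde10a) and 4 did not (Drd2, Ppp1r1b, Tac1 and Adcy5). The array error was nearly the same for all 9 (0.20 to 0.24), so this split is close to a cut on size. Rgs9 and Pde10a (-0.62 each) lay only just past it.

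Of the 18 probes, 16 were well above background on all 3 brain arrays. All 16 read above the control at the low dose, by 1.32 to 2.24, as did 49.5% of all measured genes by sign alone. All 16 read below it at the high dose, by 0.25 to 0.96, as did 50.9% of all genes. Probes of 1 gene share its RNA and are no replicates of a condition and they differ in sequence and position. The following probes are shown because their mm9 coordinates cross an exon junction, so that genomic DNA does not match them over their whole length:
Ppp1r1b probe A_52_P664867: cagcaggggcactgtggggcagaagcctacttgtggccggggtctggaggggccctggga
Tac1 probe A_51_P216456: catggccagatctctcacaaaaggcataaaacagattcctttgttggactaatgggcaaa
The Ppp1r1b junction probe spans chr11:98216810-98218184 and read 0.05, 1.58 and -0.46 in control, low and high dose, with differences of 1.53 and -0.51. The Tac1 junction probe spans chr6:7507722-7509136 and read -0.54, 0.88 and -1.03, with differences of 1.41 and -0.49. Both therefore moved by nearly the same amounts as the reported probes of their genes (1.49 and -0.46 for Ppp1r1b, 1.49 and -0.50 for Tac1). The other 2 Tac1 probes, of another transcript model downstream, were not well above background on any array.

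Rgs9 had 5 probes, all measured in brain, with low-dose differences of 1.32 to 1.92 and high-dose differences of -0.74 to -0.28. The reported probe and probe A_55_P1969032 share 54 bases and gave 1.92 and 1.82 at the low dose. The smallest difference came from probe A_66_P140185, which matches a transcript model with another 3′ end and was dim in brain (-2.61, -1.30 and -2.89). A further probe in another transcript model, A_55_P1969027, read -2.06, -0.36 and -2.77. The second Penk probe, also from another transcript model, read -0.49, 1.22 and -1.45, with differences of 1.71 and -0.96.

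The members were set against 3 lists of striatal genes: 10 of the D2 (indirect) pathway, 9 of the D1 (direct) pathway and 26 shared by both, 45 genes in all. Of these, 36 are not among the 9. At the low dose the D2 list had a median difference of 1.13 over 9 measured genes with 5 higher, and the D1 list 0.37 over 8 measured genes with 3 higher, against 0.441% of all genes. The gap of 0.76 between these medians depended on how a gene's probes were combined. With the mean of all probes of a gene that were well above background on any array, it was 0.035. The gap also shrank to 0.40 with another background correction and to 0.45 with no filter on dim probes. It was 0.76 to 0.81 with the other 4 alternatives (median scaling, quantile scaling, the stricter filter and the deposited table). The D2 list includes the members Adora2a, Drd2 and Penk, and the D1 list only Tac1. The members were chosen on these brain values, so the gap carries that choice. Without the members the medians were 0.31 for the D2 list and 0.21 for the D1 list.

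Apart from the members, 2 genes of each list were higher at the low dose: Drd1 and Slc35d3, and Gpr6 and Upb1. They are grouped here because they passed the size rule, so their likeness carries that choice. Drd1, the D1 receptor, read 0.78, 2.45 and 0.15 in control, low and high dose. Its low-dose difference of 1.67 lay beside the 1.63 of Drd2, which was 1.12 with another background correction. Slc35d3, a nucleotide-sugar transporter of the D1 list, read -2.37, -0.59 and -2.58, a low-dose difference of 1.78. In the D2 list the orphan receptor Gpr6 read -1.21, -0.08 and -1.61, a low-dose difference of 1.13, and its other probe gave 2.14. Upb1, an enzyme of pyrimidine breakdown in the same list, read -3.10, -1.86 and -3.67, a low-dose difference of 1.24. These 4 genes also lay below the control at the high dose, none past the size rule. The differences were -0.62 for Drd1, -0.21 for Slc35d3, -0.40 for Gpr6 and -0.57 for Upb1. Only that of Drd1 exceeded 3 times its array error (0.20). For Slc35d3, Gpr6 and Upb1 (array errors 0.22, 0.21 and 0.25) the control and the high dose are not separated.

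Most other genes of each list did not pass the size rule. Pdyn, the dynorphin precursor and the D1 pathway's other peptide, read 2.37, 2.90 and 2.33, a low-dose difference of 0.53 that did not pass the size rule, against 1.49 for Tac1. In the D1 list Chrm4 (0.21), the transcription factor Ebf1 (0.18, with other probes at 0.75 to 0.93), Sfxn1 (0.14) and Eya1 (-0.31) did not pass either. In the D2 list Sp9 (0.35), Plxdc1 (0.26), Ptprm (0.12) and Grik3 (0.05) did not pass. Gpr52 of the D2 list and Isl1 of the D1 list were well above background only on the low-dose brain array, which put them at least 1.79-fold and at least 3.62-fold above the control.

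At the high dose the D2 list had a median of -0.34 and the D1 list of -0.08, with 0 genes past the size rule in either. Between high and low dose the medians were -1.53 (5 of 9 lower) and -0.43 (3 of 8 lower). This gap of -1.10 went to -0.32 with the same mean of probes. Without the members the low-dose medians were 0.31 over 6 genes for the D2 list and 0.21 over 7 genes for the D1 list, with 2 genes higher in each. Between the doses the medians without the members were -0.24 for the D2 list and -0.29 for the D1 list.

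The 26 genes shared by both pathways had median differences of 1.34 under the low and -0.34 under the high dose. Of them, 17 were higher at the low dose against 0.441% of all genes, and 0 were lower at the high dose against 0.25%. Over the 21 that are not among the 9, the medians were 1.12 and -0.30, with 12 higher. The largest low-dose differences belonged to Slc10a4, a transporter of the bile acid carrier family (2.24, and -0.97 at the high dose), Serpina9 (2.16 and -0.61), Ido1, an enzyme of tryptophan breakdown (2.11 and -0.86), and Syndig1l (1.90 and -0.82). The transcription factor Six3 (1.81 and -0.90), the retinoic acid receptor Rarb (1.61 and -0.30) and the sodium channel subunit Scn4b (1.48 and -0.35) were also higher. Slc10a4 was dim, at -3.73, -1.49 and -4.70 in control, low and high dose. The high-dose differences of Slc10a4 (array error 0.36), Serpina9 (0.21), Rarb (0.20) and Scn4b (0.20) were within 3 times their array error. Of the 26, those that did not pass at the low dose were Meis2 (0.91), Gnal (0.86), Tmem158 (0.83), Dclk3 (0.62), Foxp1 (0.51) and Bcl11b (0.50). Arpp21 (0.20, with other probes at -0.34 to 0.89), Ptpn5 (0.03, with other probes at 0.53 to 0.66) and Gpr149 (-0.002) did not pass either. Strn was higher at the low dose (1.04) but lay above the control at the high dose as well (0.47).

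Over the 3 lists together, 43 genes were measured and 25 were higher at the low dose, the 9 members and 16 others. These 25 are 58.1% of the measured list genes and 25% of the 100 genes that were higher over the whole array. Between high and low dose 26 were lower, 60.5% of the measured list genes and 15.2% of 171. Over the 34 list genes that are not among the 9 the medians were 0.89 at the low dose, -0.19 at the high dose and -1.01 between the doses. The lists were written with earlier results of these arrays known, so these counts do not support the members' pattern independently.

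**Figure D2:**
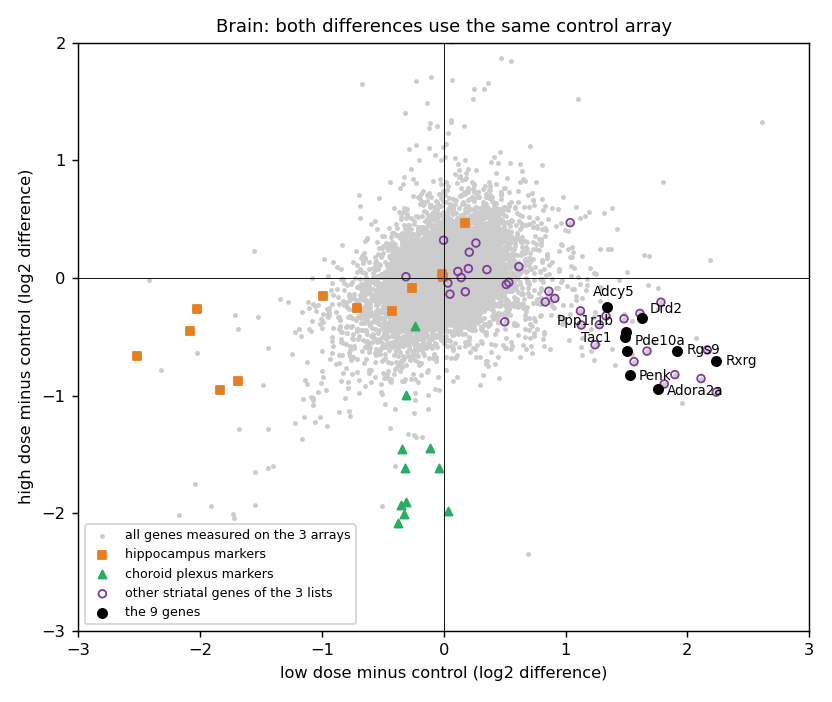
Log2 difference from the brain control at the low dose (horizontal) and at the high dose (vertical) for the 22585 genes measured on all 3 brain arrays (9 lie outside the axes). The 9 genes (black) lie right of 1.34 and between -0.95 and -0.25 vertically, among other genes of the striatal lists (open circles), while hippocampus markers (orange) spread left and choroid plexus markers (green) lie low; the same control array enters both axes.

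The pathway from the receptors to cyclic AMP was followed in a list of 42 genes, of which 41 were measured at the low dose. Their median difference was 0.17 under the low and -0.04 under the high dose. Of the 41, 11 were higher at the low dose, against 0.441% of all genes. Among the 11 were Drd1, Drd2, Adora2a, Gng7, Rgs9, Adcy5, Pde10a, Pde1b, Pde7b and Ppp1r1b. Of these, 6 are among the 9, and over the 35 other measured genes the median was 0.11 with 5 higher. Gng7, the G protein gamma subunit that pairs with the olfactory-type alpha subunit, stood at 1.28 and -0.40, and Pde1b, a calcium-dependent phosphodiesterase, at 1.12 and -0.28. Gnal, that alpha subunit itself, stood at 0.86 and -0.11. The other measured genes did not pass the size rule. Among them, the stimulatory alpha subunit Gnas stood at -0.10, Gnao1 at 0.13, the kinase subunits Prkaca at -0.12 and Prkar2b at 0.29, and Creb1 at 0.01. Rgs4 stood at 0.45, Pde2a at 0.34, the phosphatase subunit Ppp1ca at 0.31 and Arpp19 at 0.31. The Rgs9 partners Gnb5 and Rgs7bp stood at 0.36 and 0.11.

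Within the members' own families the differences were uneven. Of 9 adenylyl cyclases, Adcy5 alone passed the size rule in any brain comparison; Adcy1 stood at -0.16, Adcy2 at 0.09, Adcy3 at 0.30, Adcy4 at 0.24, Adcy6 at -0.22, Adcy7 at 0.13, Adcy8 at -0.36 and Adcy9 at -0.03 at the low dose, for a list median of 0.09. Adcy8 had other probes at -1.05 to -0.58. Of the dopamine receptors, Drd3 was well above background only on the low-dose brain array, at least 2.91-fold above the control. Drd5, the other receptor that raises cyclic AMP, was lower at the low dose (-1.19), the opposite direction from Drd1, and stood at -0.44 under the high dose; Drd4 stood at 0.23 and -0.40.

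Of 9 adenosine genes, Adora2a alone was higher at the low dose. The inhibitory receptor Adora1 stood at -0.08 and the kinase Adk at -0.06. Nt5e, which makes adenosine outside the cell, stood at 0.71 under the low and -0.51 under the high dose and was lower between the doses (-1.21). Adora2b (-0.30), Adora3 (0.10), Ada (-0.13), Slc29a1 (0.10) and Slc29a2 (0.13) did not pass.

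Of 16 opioid and tachykinin genes, 15 were measured at the low dose, where Penk, Tac1 and the substance P receptor Tacr1 (1.44, and -0.02 at the high dose) were higher. Pomc, the precursor made in hypothalamus and pituitary, was lower at both doses (-1.55 and -1.65). The kappa receptor Oprk1 stood at 0.79 and -0.32 and was lower between the doses (-1.11), the delta receptor Oprd1 at 0.71 and 0.17, and the mu receptor Oprm1 at 0.03 and 0.01. The other peptide precursors Pnoc (-0.24) and Tac2 (-0.08) and the processing enzymes Pcsk1 (0.06), Pcsk2 (0.18) and Cpe (0.02) did not pass at the low dose. The enkephalin-degrading enzyme Mme stood at 0.20, with other probes at 0.90 to 1.69, and Oprl1 at -0.06.

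Of the retinoid genes, 13 were measured at the low dose and 3 were higher, against 0.441% of all genes. The 3 were Rxrg, its partner Rarb (1.61) and the binding protein Crabp1 (1.26, and -0.56 at the high dose). The other retinoid X receptors stood at 0.08 (Rxra, with another probe at -0.57) and 0.03 (Rxrb), and the other retinoic acid receptors at -0.09 (Rara) and 0.01 (Rarg). Rbp4 (0.34), Aldh1a1 (0.03), Aldh1a2 (-0.43), Stra6 (-0.14) and Cyp26b1 (-0.13) did not pass.

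The genes whose brain profile was most like the members' were found by the distance between a gene's low-dose and high-dose differences and the members' medians, over 3 arrays and 15040 named genes. Among the 8 nearest were Dach1 (distance 0.03, differences 1.54 and -0.64), Drd1 (0.14), Lrrc10b (0.15, 1.38 and -0.61), Scube3 (0.17, 1.41 and -0.74), Actn2 (0.19, 1.48 and -0.43), Nexn (0.20, 1.72 and -0.54) and Abhd11os (0.25, 1.55 and -0.37). Drd1 is in the striatal lists. The members' own distances ran from 0.02 (Pde10a) to 0.71 (Rxrg).

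Other markers moved on the same arrays. Of 12 hippocampus markers, all measured, 5 were lower at the low dose against 0.304% of all genes (Spink8 -2.52, Lct -2.08, Lefty1 -2.02, Fibcd1 -1.84 and Dsp -1.69) and the list median was -0.85, with -0.26 at the high dose. Their summed linear level, in multiples of the array's 75th percentile, was 31.3 in the control, 24.3 under the low and 28.4 under the high dose, while that of the 9 genes was 66.2, 200 and 43.7. Of 11 choroid plexus markers, 9 were lower at the high dose against 0.25% of all genes (among them Ttr -1.90, Kcne2 -2.08 and Aqp1 -1.98). At the low dose 0 of these markers were lower, against 0.304% of all genes. Their list medians were -0.31 under the low and -1.62 under the high dose, and their summed levels 74.6, 60.4 and 20.4. None of the hippocampus or choroid plexus markers was below background on any brain array. Of 7 pituitary markers, 5 were well above background in the control, 2 under the low and 3 under the high dose. Pomc was lower at both doses. Prl was lower under the high dose (-3.54). Under the low dose Prl was not well above background, so its difference was not measured there. The summed levels of the 7, dim markers included, were 2.45 in the control, 0.92 under the low and 0.86 under the high dose. The part of these markers' cell types in the members' differences was not tested.

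By list median, markers of neurons in general and of glia were near their control values. A single gene could differ more: Gfap of the astrocyte list stood at -0.69 at the low and -0.14 at the high dose, not past the size rule. Over 10 general neuronal genes the medians were 0.04 at the low and 0.08 at the high dose, over 14 cortex genes -0.12 and 0.03, and over 8 GABA neuron genes 0.18 and -0.15, of which Dlx6 was higher at the low dose (1.07). Striatal interneuron markers had medians of 0.04 and -0.12 over 9 measured genes and 0 past the size rule at either dose. Of these, Slc18a3, the acetylcholine transporter of cholinergic neurons, stood at 0.96 and -0.34 and Trh at 0.98 and -0.23, and both were lower between the doses (-1.29 and -1.21). Markers of the dopamine neurons that project to the striatum had medians of 0.05 and -0.03 over 6 measured genes, with Th at 0.49 and 0.02; Slc6a3, En1 and Foxa2 were not well above background on any brain array. Thalamus (-0.07 and -0.07), hypothalamus (-0.02 and -0.11), cerebellum (-0.09 and 0.06), olfactory bulb (0.35 and 0.02), astrocyte (0.01 and 0.09), oligodendrocyte (-0.04 and -0.22), microglia (0.09 and 0.04) and endothelium (0.10 and 0.08) lists had 0 genes past the size rule against the control.

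**Figure D3:**
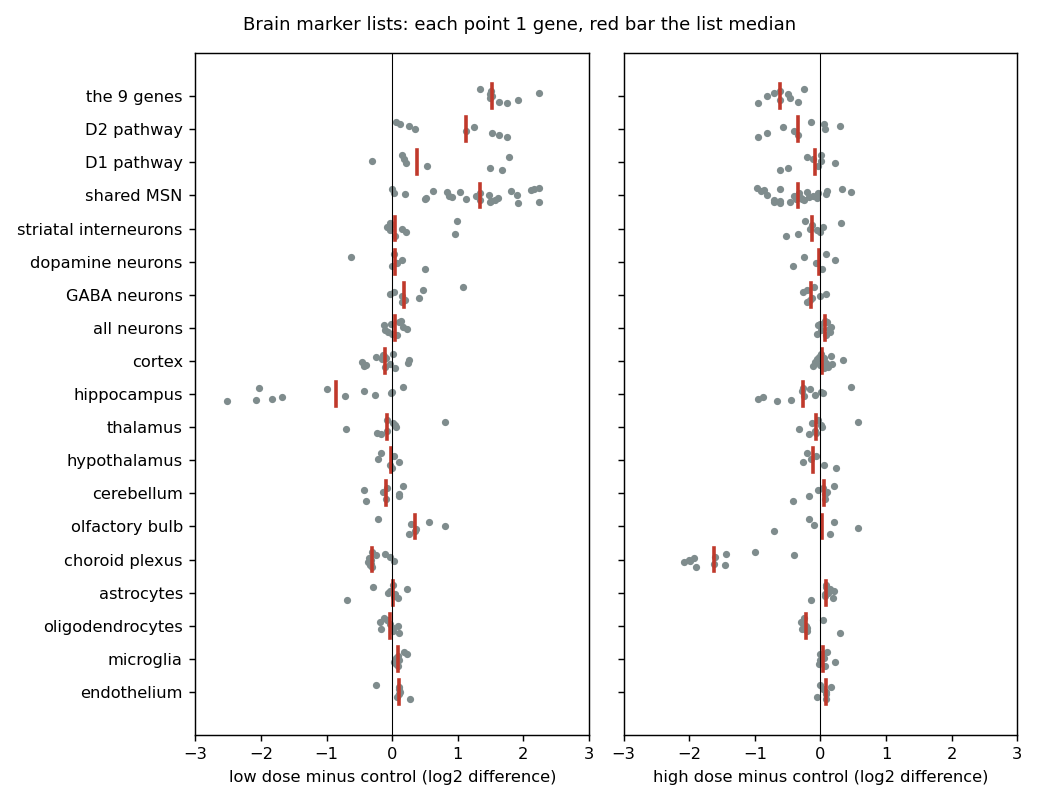
Log2 difference from the brain control at the low dose (left) and the high dose (right) for each measured gene of the marker lists (points) with the list median (red bar). The 9 genes have medians of 1.53 and -0.62 and do not reach 0 in either panel, hippocampus markers have medians of -0.85 and -0.26, and choroid plexus markers of -0.31 and -1.62. The D1, D2 and shared lists include the 9 genes, and the remaining lists plotted have medians from -0.12 to 0.35 at the low dose.

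Kidney and liver were not used to choose the genes. Measured there were 8 of 9 in kidney and 6 of 9 in liver, and 0 passed the size rule in kidney at the low dose (0.492% of all measured genes did, in either direction), in kidney at the high dose (1.66%) or in liver at the high dose (0.803%). For the reported probes no difference there exceeded 3 times its array error. The members' medians were 0.28 and 0.12 in kidney at the low and the high dose and -0.16 in liver at the high dose, and the signs were mixed: 6 of 8 above the control in kidney at the low dose (47.8% of all genes), 5 of 8 at the high dose (44%), and 2 of 6 in liver (46.1%).

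Ppp1r1b, whose product also acts in kidney tubule cells, was the only one of the 9 with levels above 0 on the kidney arrays, at 2.04, 2.35 and 2.29 in control, low and high dose. In liver it read 1.18 in the control and 0.79 at the high dose. Rxrg read 0.84 and 0.46 in liver, where the control level was within 0.02 of that in the brain control, but -3.53, -3.25 and -3.16 in kidney. Adora2a read -2.90, -2.61 and -2.78 in kidney and -2.86 and -2.76 in liver.

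Rgs9 read -2.47, -2.16 and -2.34 in kidney and -3.83 and -3.47 in liver. Adcy5 read -2.47, -2.93 and -2.75 in kidney and -2.69 and -2.90 in liver. Pde10a read -4.15, -3.76 and -3.83 in kidney and Penk -2.02, -1.94 and -2.21, and both were not well above background in liver. Tac1 was not well above background on any kidney or liver array.

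Drd2 read -3.43, -3.83 and -4.05 in kidney and -2.78 and -2.89 in liver. Its liver control level was 0.09 below that of the brain control, the closest of the brain and non-brain levels after Rxrg. For the other genes measured in kidney, the brain control exceeded the kidney control by 2.16 (Ppp1r1b) to 6.44 (Penk), with each tissue scaled to its own 75th percentile. The Rgs9 probe A_51_P371034 stood apart from the gene's reported probe outside the brain, with -4.17, -4.49 and -0.62 in kidney and -1.87 and -4.87 in liver, and its brain values were 1.02, 2.92 and 0.42. In kidney its high-dose difference from the control was 3.56 (array error 0.28), while the reported probe gave 0.12. With the mean of all Rgs9 probes well above background on any array, the difference turned sign in kidney at the low dose (-0.083) and in liver (-0.97). Probes dim on the compared arrays entered these means, among them A_51_P371034 in liver (-3.01). Rgs9 probes well above background on both compared arrays gave 0.30, 0.03 and -0.06 in kidney at the low dose. In liver such probes gave 0.37 and -0.08.

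**Figure D4:**
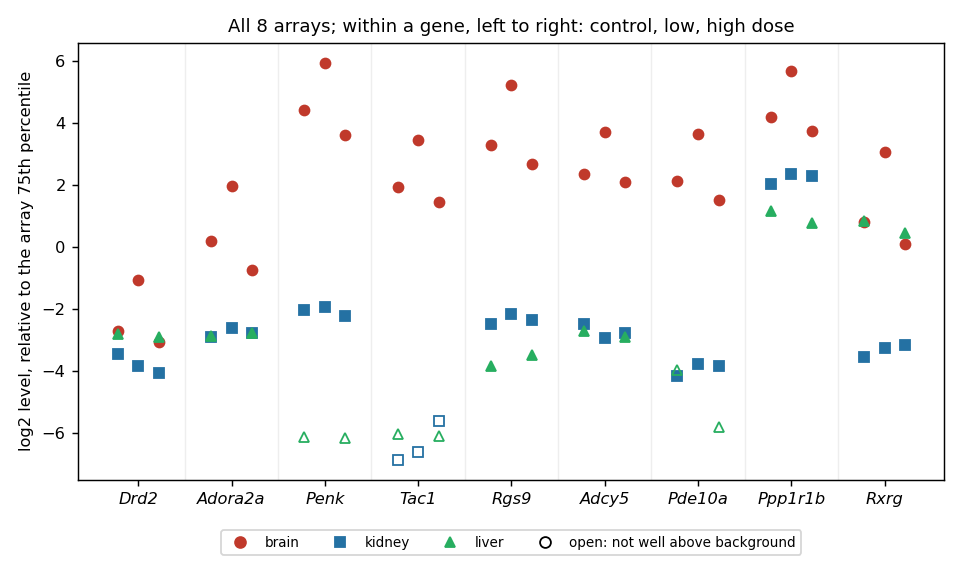
Level of each gene (log2, relative to the array's 75th percentile) on the 8 arrays; within a gene the points run from control through low to high dose (liver has no low-dose array), and open symbols mark signals not well above background. The brain points of a gene spread over up to 2.94, while measured kidney and liver points spread over at most 0.62.

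Promoter sequence was examined because the 9 genes had like differences in brain. RefSeq (GRCm38.p6) promoter windows, taken as 250 bases before the start site, were found for 6 of the 9 genes and 8 start sites. The motifs searched on both strands were the cyclic AMP response element TGACGTCA, its short form TGACG (which is part of the full element), the AP-1 motif TGANTCA, the nuclear receptor core motif AGGTCA and the E-box CACGTG. The windows that held a match are shown with the matches in capitals:
Tac1 promoter, chr6:7554811-7555060, forward strand: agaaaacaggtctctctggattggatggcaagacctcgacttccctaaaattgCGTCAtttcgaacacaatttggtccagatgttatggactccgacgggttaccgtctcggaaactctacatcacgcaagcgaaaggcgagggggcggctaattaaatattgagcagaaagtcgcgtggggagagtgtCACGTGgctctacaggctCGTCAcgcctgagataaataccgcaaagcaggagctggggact
Rxrg promoter at the second start site, chr1:167618015-167618264, forward strand: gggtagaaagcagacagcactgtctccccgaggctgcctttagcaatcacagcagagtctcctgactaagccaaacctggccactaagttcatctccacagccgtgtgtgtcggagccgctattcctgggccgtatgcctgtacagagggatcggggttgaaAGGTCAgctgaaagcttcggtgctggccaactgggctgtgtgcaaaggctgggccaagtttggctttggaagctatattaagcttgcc
The Tac1 window held TGACG on the reverse strand at 197 and 43 bases before the start, and an E-box at 61 bases before it. The Rxrg window held AGGTCA at 88 bases before the start. In all, 1 of 8 windows held TGACG, against 17.8% of 32851 windows of the same length in the genome table, 1 of 8 held AGGTCA (14.0%), 1 of 8 held CACGTG (6.02%), and 0 of 8 held TGACGTCA (1.55%) or TGANTCA (6.75%). A match is a description of the letters in the window, and its absence says nothing about any factor.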

How the data were processed

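Cy3-labelled RNA of 8 samples was hybridised to 1-colour arrays of 1 design. The deposited scanner files give a linear intensity per spot. Agilent Feature Extraction 12.0.3.1 is the tool in the submitters' processing notes. Its processed intensity is background-subtracted and detrended, per the file headers, and its 0 or 1 spot flags were also read. In the deposited value table, an intensity is the processed signal over that array's 75th percentile of all spots.

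Control spots, non-uniform spots and outliers were dropped. Log2 signals were averaged per probe, and the 75th percentile of the non-control spots was subtracted. The brightest probe of a gene, by its mean over all arrays, stands for the gene. Where only 1 of 2 arrays was well above background, the fold is a lower bound: the dim side was set to the array's lowest level well above background, or to the probe's own value if that was higher. RefSeq (GRCm38.p6) names were used for 32994 of 56605 probes, and the other names are those of the files. Probe positions are in mm9, as in the array files.

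The members and the 26 gene lists were chosen with earlier results of these data known, and the kidney and liver markers were added after the data were seen. Named were all members, the genes of the D1, D2 and family lists, list genes past the size rule or among the 4 largest of their list, and the 8 genes nearest to the members. Some results that this rule would name are not reported here. The 7 alternatives were median scaling, quantile scaling, normexp background correction with quantile scaling, the mean of a gene's probes, no filter and a stricter filter on dim probes, and the deposited table. The mean took every probe of a gene that was well above background on any array, also where it was dim on the compared arrays. Python 3.11.15 with numpy 2.4.6, pandas 2.3.3, scipy 1.17.1 and matplotlib 3.10.9 was used. The number of arrays, 1 per group, limits the precision.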

Additional observations from a re-analysis of the deposited data

Results flagged for a closer look

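For 5 of the 9 genes the same contrast went one way in 1 tissue and the other way in another with both differences larger than their array error. There was 1 array on each side, so the difference between tissues was not tested. At the low dose Drd2 differed from the control by 1.63 in brain and -0.40 in kidney, and Adcy5 by 1.34 in brain and -0.46 in kidney. At the high dose Ppp1r1b differed by -0.46 in brain, 0.24 in kidney and -0.38 in liver. Rxrg differed by -0.71 in brain, 0.37 in kidney and -0.38 in liver, and Pde10a by -0.62 in brain and 0.32 in kidney. The kidney and liver values were all within 3 times their array error, and so was the brain value of Ppp1r1b.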

How the results depend on the processing

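Of 105 recomputed summary values 97 kept their call or stayed within their error, and 0 reversed; of 333 recomputed single-gene differences 313 did so and 20 moved. With the mean of probes, Rgs9 turned sign in kidney at the low dose (-0.083, against 0.30). It also did so in liver at the high dose (-0.97, against 0.37). Neither difference passed the size rule in the reported probe, and probes dim on the compared arrays entered both means. The members' median ran from 1.53 to 1.72 at the low dose and from -0.66 to -0.59 at the high dose. With quantile scaling 1 gene (Adora2a, -1.03) passed the size rule at the high dose, and the median between high and low dose was -2.39, or -2.36 with normexp correction, against -2.12. The D2 minus D1 gap includes the members of both lists. At the low dose it was 0.40 with normexp correction, 0.035 with the mean of probes and 0.45 with no filter on dim probes. Between the doses it was -0.72 with normexp correction and -0.32 with the mean of probes. Counts over all genes moved more than the members: at the low dose 44 were higher and 18 lower with normexp correction, 76 and 38 with the stricter filter, and 145 and 106 with no filter, against 100 and 69. At the high dose the counts were 10 and 20, 24 and 28, and 96 and 95 in the same order, against 46 and 57, and between the doses 15 and 74, 36 and 120, and 156 and 225, against 73 and 171. No paired analysis was possible because each group has 1 array, and no replicate could be left out. Signal over background limits Drd2, Gpr52, Isl1, Drd3, Slc10a4 and Prl in brain, Tac1 in kidney, and Penk, Tac1 and Pde10a in liver.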
